A study of Teleogryllus oceanicus with 18 samples.

Results

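A supplementary list of immune genes in the study on *Teleogryllus oceanicus* field crickets names 53 genes. It is a subset of the study's immune genes, is called the immune list below, and its names rest on matches with known proteins from other organisms. Beside Toll-like receptors, peptidoglycan-recognition proteins and phenoloxidases it lists 2 biosynthetic enzymes that are described here: serine hydroxymethyltransferase, mitochondrial (MSTRG.19162) and phosphoacetylglucosamine mutase (TOG006979). They were chosen by these names, with earlier results of these data known. Both were among the 23748 of 32729 genes that could be tested. The study's immune genes were picked by similarity to phenoloxidase or by their annotation with an immune process, among genes expressed in these libraries. The rule by which the listed subset was taken from them was not given in the sources used here. The study cites the list where it counts immune genes that changed after infestation in these same libraries. Both enzymes may thus have been listed for their response. A call of either below is a description, and shares of all genes set beside it are from genes not picked in this way.

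Serine hydroxymethyltransferase takes a carbon unit from serine, which becomes glycine, and passes it to tetrahydrofolate. The mitochondrial enzyme is a main entry to one-carbon metabolism, which supplies the building of purines and thymidylate and is drawn on by dividing cells. Phosphoacetylglucosamine mutase is a step of the hexosamine pathway, in which it moves the phosphate group of N-acetylglucosamine phosphate from one carbon of the sugar to another. The pathway ends in UDP-N-acetylglucosamine, the sugar donor for protein glycosylation and, in insects, for the chitin of cuticle and tracheae. In humans, inherited variants that reduce the function of this mutase cause an immunodeficiency.

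The data are 18 RNA-seq libraries in 6 groups of 3. Crickets were either controls, handled in the same way but given no larvae, or were collected 4 or 7 days after 2 larvae of the parasitoid fly *Ormia ochracea* were placed on them by hand, and this was done in laboratory colonies from Mangaia, an island without the fly, and from Kauai, where it occurs. No colony met the fly during rearing, the Kauai colony but not that of Mangaia was renewed with offspring of wild females, and the flies came from California. All were adult males, whose adult age at infestation spanned several days. Each library pooled RNA of 2 males. The RNA came from the body without head, gut, legs, wings and pronotum, after larvae had been taken out. Crickets of both populations whose larvae emerged before collection at day 7 were left out by the study. The day 7 groups thus hold hosts whose larvae had not yet emerged. Mangaia pools held normal-wing males alone and Kauai pools 1 flatwing and 1 normal-wing male, so population and wing morph cannot be told apart.

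Read pairs counted in genes numbered 6266925 to 8023588 per library, and 6.57% to 14.4% of the pairs of a library mapped to several places. Levels are TMM-normalised read pair counts scaled to a common library size (CPM), which are not per length, so the level of one enzyme was not compared with that of the other. Mangaia day 7 library 2 correlated least with its group (mean Pearson r = 0.902 over genes, where the library at the median had 0.949), and among Kauai day 7 libraries it was library 1 (0.940). The 7 phenoloxidases on the list, melanin-forming enzymes made by insect hemocytes, were all detected in each group. Their summed level was 140 to 220 CPM in control libraries, 460 to 1320 CPM at day 4 and 860 to 1944 CPM at day 7. At an adjusted p under 0.05 (quasi-likelihood test of edgeR), 4 of the 7 rose and 0 fell in Mangaia at day 7 (12.6% and 18.8% of all genes). In Kauai 6 rose and 1 fell (25.1% and 26.2%), so the sum does not stand for each of them. The part of a changing share of hemocytes in the values below was not tested.

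Serine hydroxymethyltransferase (MSTRG.19162) had 13654 read pairs in all and was well covered in every library, with 293 to 1776 pairs. In Mangaia controls it stood at 40.4, 72.2 and 53.9 CPM, a mean of 55.5 ± 16.0 (SD, n = 3). At day 4 the Mangaia libraries had 90.2, 128.6 and 93.5 CPM, a mean of 104.1 ± 21.3 (SD, n = 3). All 3 lay above all 3 controls, as was so in that direction for 12.0% of all genes.

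By day 7 the Mangaia libraries of this enzyme had 246.0, 80.2 and 164 CPM, a mean of 163 ± 82.9 (SD, n = 3). They too lay above every control, as was so in that direction for 21.7% of all genes, but they spanned a 3.07-fold range, and library 2, the one least like its group, was lower than every day 4 library. In bulk RNA, a rise in the number of expressing cells and a rise in RNA per cell cannot be told apart.

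Kauai controls of serine hydroxymethyltransferase had 102.8, 46.7 and 67.3 CPM, a mean of 72.3 ± 28.4 (SD, n = 3). Kauai libraries of day 4 had 109.4, 56.3 and 145 CPM (mean 103.6 ± 44.7, SD, n = 3). Those of day 7 had 131, 188.8 and 71.7 CPM (mean 130.6 ± 58.6, SD, n = 3). The means stood in the same order of stages as in Mangaia, but the 3 Kauai groups overlapped, and 1 of 3 libraries of each infested group lay below the mean of the controls.

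**Figure D1:**
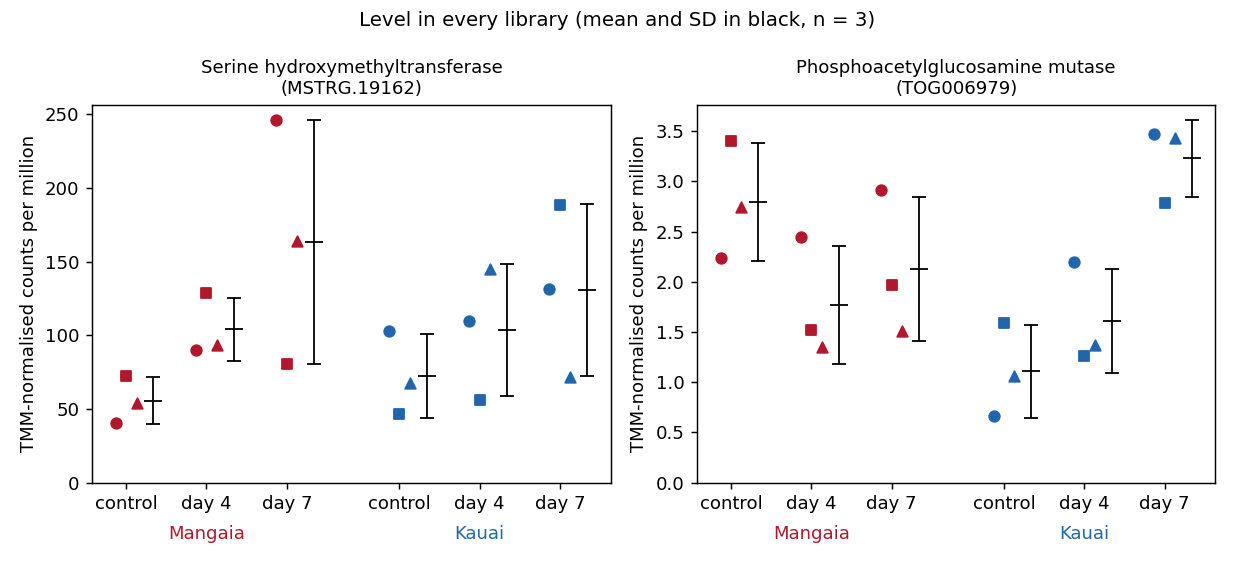
Level of both enzymes in TMM-normalised CPM in each of the 18 libraries (circle, square and triangle are libraries 1, 2 and 3 of a group, red Mangaia, blue Kauai), with the group mean and SD (n = 3) as black bars. Serine hydroxymethyltransferase ranged from 40.4 to 246.0 CPM, with Mangaia controls below both infested Mangaia groups, while phosphoacetylglucosamine mutase ranged from 0.664 to 3.47 CPM, with Kauai controls lowest and Kauai day 7 libraries highest on average.

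The mean of serine hydroxymethyltransferase rose in the order Mangaia controls, Kauai controls, Kauai day 4, Mangaia day 4, Kauai day 7, Mangaia day 7. Each group in this order overlapped with its neighbour. Of the 15 pairs of groups, 2 did not overlap, Mangaia controls against Mangaia day 4 and against Mangaia day 7. Over all genes and pairs of groups, 37.7% did not overlap.

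In the tests, serine hydroxymethyltransferase rose in Mangaia at day 7, with a log2 fold change of 1.56 over controls (SE 0.453, 95% interval 0.59 to 2.52, adjusted p = 0.0191 by the quasi-likelihood test of edgeR). This is a 2.94-fold rise, in 3 of 3 libraries. It was the one of 2 enzymes called in that comparison, in which 12.6% of all genes tested were called higher and 31.4% in either direction. A rise at least as large was not rare, since 5.61% of all genes had a larger log2 fold change. The call was lost without Mangaia control 1, the lowest control (log2 fold change 1.23, adjusted p = 0.0975), without Mangaia day 7 library 1, the highest library (1.19, adjusted p = 0.0548), and when the model held the 6 compared libraries alone (1.56, adjusted p = 0.052). Without Mangaia day 7 library 2 it was larger, at 1.91 (adjusted p = 0.00747).

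At day 4 in Mangaia the enzyme had a log2 fold change of 0.91 (SE 0.447, 95% interval -0.04 to 1.86, adjusted p = 0.355 by the quasi-likelihood test of edgeR). This did not pass the threshold although the groups did not overlap, as was the case, in the higher direction, for 12.0% of all genes. From day 4 to day 7 the log2 fold change in Mangaia was 0.65 (95% interval -0.29 to 1.59, adjusted p = 0.292). The day 4 and day 7 comparisons share the control libraries and are not independent of each other.

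In Kauai the log2 fold change of serine hydroxymethyltransferase was 0.52 at day 4 (SE 0.445, 95% interval -0.43 to 1.46, adjusted p = 0.538) and 0.85 at day 7 (SE 0.446, 95% interval -0.09 to 1.80, adjusted p = 0.121). Neither passed the quasi-likelihood test, and both intervals reach past a log2 fold change of 1. The value at day 7 depended on the scaling of the libraries. With library size alone it was 1.17 and was called (adjusted p = 0.0232), a scaling under which the median over all genes tested went from 0.07 to 0.37 (RLE factors took it to -0.10). It was 0.44 without Kauai day 7 library 2. From day 4 to day 7 in Kauai the log2 fold change was 0.33 (95% interval -0.61 to 1.28, adjusted p = 0.596).

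That the rise was called in Mangaia and not in Kauai does not show a difference between the populations. The response of serine hydroxymethyltransferase in Kauai minus that in Mangaia was -0.70 on the log2 scale at day 7 (SE 0.628, 95% interval -2.04 to 0.63, adjusted p = 0.538 by the quasi-likelihood test of edgeR) and -0.39 at day 4 (95% interval -1.72 to 0.95, adjusted p = 0.851). Kauai minus Mangaia was 0.38 in controls (adjusted p = 0.716), -0.01 at day 4 (adjusted p = 1) and -0.32 at day 7 (adjusted p = 0.698). Averaged over the 3 stages the difference was 0.02 (95% interval -0.53 to 0.56, adjusted p = 0.988), an interval that holds differences of either sign.

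Phosphoacetylglucosamine mutase (TOG006979) was a rare transcript, with 276 read pairs in the 18 libraries together and 4 to 26 in any one. In Mangaia controls it had 17, 25 and 18 read pairs, which is 2.24, 3.41 and 2.75 CPM (mean 2.80 ± 0.586, SD, n = 3). At day 4 the Mangaia libraries had 20, 11 and 10 pairs (2.44, 1.52 and 1.35 CPM, mean 1.77 ± 0.590, SD, n = 3). At day 7 they had 21, 16 and 11 pairs (2.91, 1.96 and 1.51 CPM, mean 2.13 ± 0.714, SD, n = 3). The 3 Mangaia groups overlapped, with all day 4 libraries and 2 of 3 day 7 libraries below the mean of the controls.

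Kauai started lower. Its controls had 4, 10 and 7 read pairs of phosphoacetylglucosamine mutase (0.664, 1.59 and 1.06 CPM, mean 1.11 ± 0.466, SD, n = 3). All 3 lay below every Mangaia control, as was so in that direction for 13.2% of all genes. At day 4 the Kauai libraries had 15, 9 and 10 pairs (2.20, 1.26 and 1.37 CPM, mean 1.61 ± 0.515, SD, n = 3), which overlapped with the controls.

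At day 7 the Kauai libraries had 25, 21 and 26 pairs (3.47, 2.78 and 3.43 CPM, mean 3.23 ± 0.385, SD, n = 3). All 3 lay above every Kauai library of the other stages. The same was so for 30.7% of all genes against controls and for 19.0% against day 4. Summed over the group, day 7 had 72 read pairs (exact Poisson 95% interval 56.3 to 90.7). The controls had 21, with an interval that reached up to 32.1, and both intervals cover counting error only.

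In the tests, phosphoacetylglucosamine mutase rose in Kauai at day 7 with a log2 fold change of 1.53 over controls (SE 0.382, 95% interval 0.71 to 2.34, adjusted p = 0.00428 by the quasi-likelihood test of edgeR), a 2.88-fold rise in 3 of 3 libraries. It was the one of 2 enzymes called in that comparison, in which 25.1% of all genes tested were called higher and 51.3% in either direction. Groups that did not overlap were found, in that direction, for 30.7% of genes. Of all genes, 13.9% had a larger log2 fold change. The call was held under each of the 11 other settings and without any one library, at adjusted p values of 0.000424 to 0.0224.

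In steps, the log2 fold change of the mutase in Kauai from control to day 4 was 0.53 (SE 0.403, 95% interval -0.33 to 1.38, adjusted p = 0.487), and that from day 4 to day 7 was 1.00 (SE 0.361, 95% interval 0.23 to 1.77, adjusted p = 0.0541 by the quasi-likelihood test of edgeR). The step from day 4 to day 7 just missed the threshold, although the groups did not overlap, as was so in that direction for 19.0% of genes. It was called by the likelihood ratio test (adjusted p = 0.0215), by limma voom (adjusted p = 0.0441), with library size alone (adjusted p = 0.0422) and with edgeR's filterByExpr (adjusted p = 0.0446). DESeq2 did not call it (adjusted p = 0.0558).

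In Mangaia the values of phosphoacetylglucosamine mutase pointed the other way without passing a test. The log2 fold change was -0.65 at day 4 (SE 0.359, 95% interval -1.41 to 0.12, adjusted p = 0.428 by the quasi-likelihood test of edgeR) and -0.39 at day 7 (SE 0.354, 95% interval -1.15 to 0.36, adjusted p = 0.411). From day 4 to day 7 it was 0.25 (95% interval -0.52 to 1.03, adjusted p = 0.637). On the log2 scale a rise of 0.5 at day 7 lay outside the Mangaia interval, and a fall of 1 lay inside it.

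**Figure D2:**
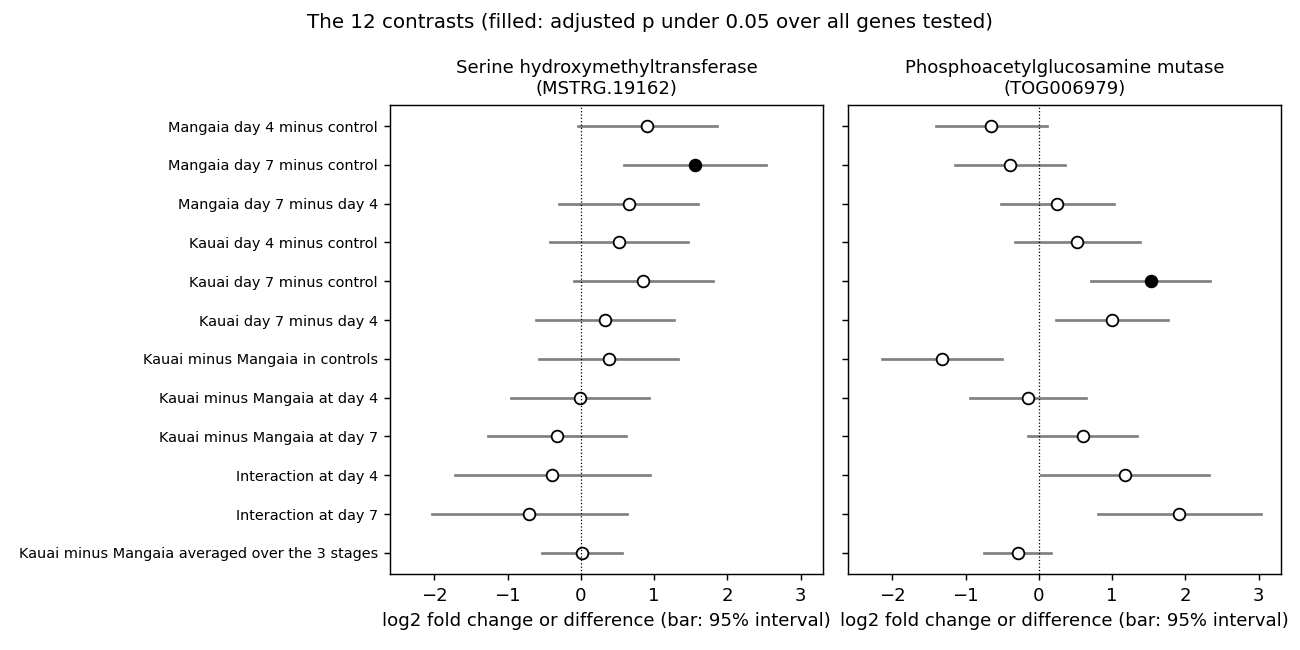
Log2 fold changes or differences of both enzymes in the 12 contrasts, with 95% intervals as bars and contrasts called at an adjusted p under 0.05 filled. The 2 filled points are serine hydroxymethyltransferase in Mangaia at day 7 (1.56) and phosphoacetylglucosamine mutase in Kauai at day 7 (1.53). For the mutase, the intervals of the step from day 4 to day 7 in Kauai, the control difference and both interactions also leave out 0 but were not called after adjustment.

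The difference between the populations in the response of phosphoacetylglucosamine mutase at day 7 was 1.92 on the log2 scale (SE 0.521, 95% interval 0.81 to 3.03, unadjusted p = 0.00211, adjusted p = 0.0608 by the quasi-likelihood test of edgeR). It did not pass the threshold in that test, where 2.43% of all genes were called. It was called by the likelihood ratio test (adjusted p = 0.0126), by DESeq2 (adjusted p = 0.0228) and with library size alone (2.26, adjusted p = 0.0236), a scaling that moved the median of all genes from 0.05 to 0.39. limma voom gave 1.95 (adjusted p = 0.0514). Leaving out any one library gave 1.61 to 2.26 and adjusted p values of 0.0517 to 0.147.

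Controls of the populations did not overlap in this gene, but their difference was not called. Kauai minus Mangaia was -1.32 in controls (SE 0.386, 95% interval -2.14 to -0.50, unadjusted p = 0.00364, adjusted p = 0.155), -0.15 at day 4 (SE 0.375, adjusted p = 0.978) and 0.60 at day 7 (SE 0.350, 95% interval -0.15 to 1.34, adjusted p = 0.316). The interaction is the last of these minus the first. Control groups without overlap, with Kauai lower, were found for 13.2% of genes. The mutase ranked 557 of 23748 genes by p, but 0.0421% of genes were called. Without Kauai control 1, the library with 4 read pairs, the control difference was -1.04 (adjusted p = 0.252).

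At day 4 the difference in response of the mutase was 1.17 (SE 0.540, 95% interval 0.03 to 2.32, adjusted p = 0.505). Averaged over the 3 stages, Kauai minus Mangaia was -0.29 (SE 0.214, 95% interval -0.74 to 0.17, adjusted p = 0.565). In order of mean level the groups were Kauai controls, Kauai day 4, Mangaia day 4, Mangaia day 7, Mangaia controls and Kauai day 7. Each overlapped with its neighbour in this order. Of the 15 pairs of groups, 5 did not overlap, where over all genes and pairs of groups 37.7% did not.

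Of the 2 enzymes, 0 were called at day 4 in Mangaia (3.11% of all genes) or in Kauai (2.07%), 0 from day 4 to day 7 in Mangaia (26.6%) or in Kauai (24.7%), and 0 between the populations in controls, at day 4 (0.152%), at day 7 (3.53%) or on average (1.51%) by edgeR's quasi-likelihood test. For the interaction at day 4, 0 genes were called (0%), while 2320 had an unadjusted p under 0.05, and the likelihood ratio test called 113, DESeq2 91 and limma voom 0. Without adjustment, the mutase fell under 0.05 in 3 of these comparisons, the step from day 4 to day 7 in Kauai, the difference in controls and the interaction at day 4, and serine hydroxymethyltransferase in 0. Other than the calls by limma voom and the likelihood ratio test given for the step in Kauai, the likelihood ratio test, DESeq2 and limma voom called neither enzyme in these comparisons.

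**Figure D3:**
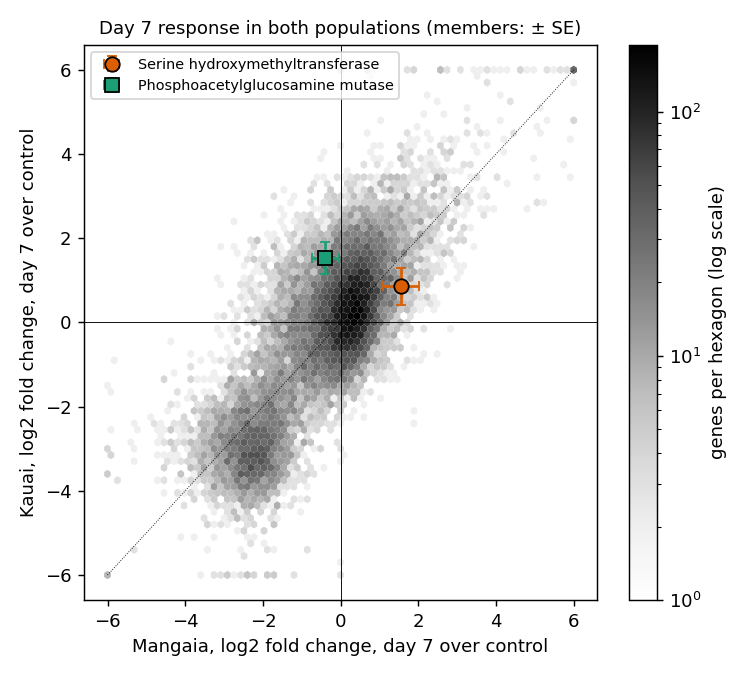
Log2 fold change of day 7 over control in Mangaia (horizontal) and in Kauai (vertical) for the 23748 genes tested, as the number of genes per hexagon on a log scale, with both enzymes on top (bars ± SE) and a dotted line of equal change. Values beyond the axes are drawn at their edge. Serine hydroxymethyltransferase lies to the right of the line (1.56 and 0.85) and phosphoacetylglucosamine mutase above it, left of 0 in Mangaia (-0.39 and 1.53).

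The enzymes also differed in what made up their error. Counting error at the mean count of a group was 2.88% to 5.02% for serine hydroxymethyltransferase, against a spread between its libraries of 20.4% to 50.8% of the mean. Its read pairs varied 20.2 to 261 times as much between libraries of a group as counting alone would give (variance over mean). The median SE of the 881 genes with a like mean count was 0.25 for the Mangaia response at day 7, where this enzyme had 0.453.

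For phosphoacetylglucosamine mutase the counting error was 20.4% to 37.8% and the spread between libraries 11.9% to 42.1%. The variance of its read pairs over their mean was 0.292 to 2.22, where counting alone gives a value near 1. Its SE of 0.382 for the Kauai response at day 7 was smaller than the median of 0.522 of the 3391 genes with a like mean count. The gene-wise biological coefficient of variation from edgeR was 18.02% for the mutase and 39.1% for serine hydroxymethyltransferase. The trend over genes of like level gave 36.2% and 34.2%. The quasi-likelihood tests reported here were not fitted with the gene-wise values. The mutase was below 1 CPM in 1 of 18 libraries.

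**Figure D4:**
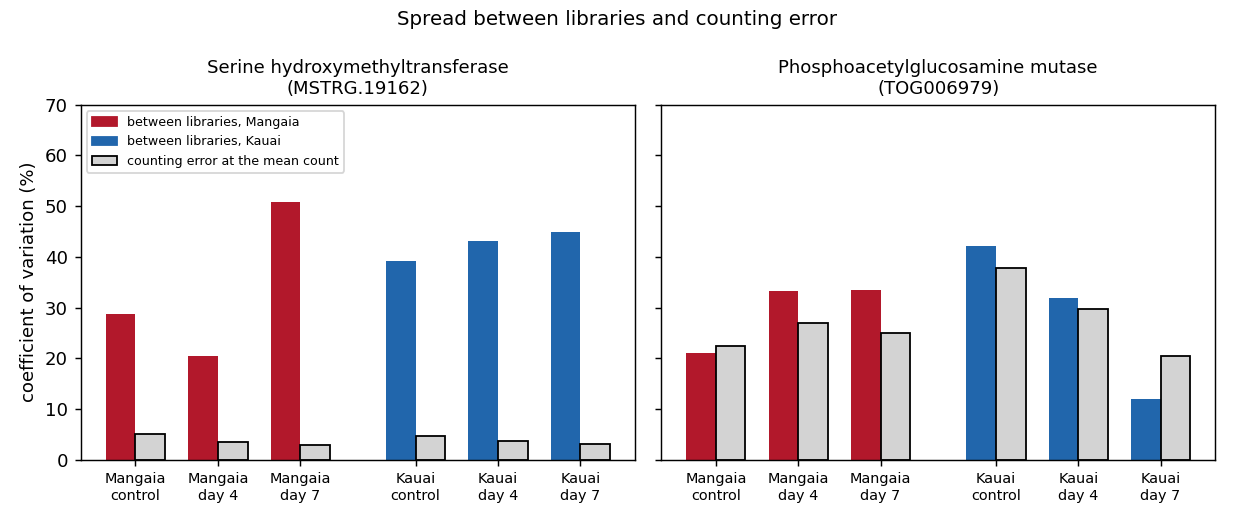
Spread between the 3 libraries of each group (SD over mean of the CPM, coloured bars) beside the counting error expected at the mean count (grey bars), both as a coefficient of variation in percent. The coloured bars of serine hydroxymethyltransferase (20.4% to 50.8%) stand far above the grey ones. Those of phosphoacetylglucosamine mutase (11.9% to 42.1%) lie on both sides of its counting error of 20.4% to 37.8%. They run from 11.9% against 20.4% in Kauai day 7 to 33.6% against 25.0% in Mangaia day 7.

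Reads of both enzymes fell on both strands, as in an unstranded library. The first strand held 50.2% of the 13654 pairs of serine hydroxymethyltransferase (exact 95% interval 49.4 to 51.1) and 51.4% of the 276 pairs of the mutase (45.4 to 57.5). The stranded counts summed to the unstranded ones in every library for both genes, so 0 pairs were set aside because a gene on the opposite strand overlapped. Reads of an antisense transcript with no gene model cannot be told apart from those of the enzymes.

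The levels of the 2 enzymes showed little correlation. Across the 18 libraries their log2 CPM had a Pearson r of 0.09 and a Spearman rho of 0.10, and within groups the Pearson r was -0.03. No interval was computed, and counting error at 4 to 26 read pairs of the mutase per library weakens any correlation. These values thus do not show that the levels are unrelated. At day 7 the enzyme called in each population was the one with the lower value in the other. Serine hydroxymethyltransferase had 1.56 in Mangaia and 0.85 in Kauai, and the mutase had -0.39 in Mangaia and 1.53 in Kauai. For neither enzyme was the difference in response between the populations called by the quasi-likelihood test of edgeR (adjusted p of 0.538 and 0.0608).

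Among 8523 other genes with at least 10 CPM on average, those most like serine hydroxymethyltransferase over the 18 libraries were MSTRG.20499 (Pearson r = 0.93, Spearman rho = 0.91), MSTRG.12403 (0.92 and 0.87) and MSTRG.16237 (0.90 and 0.85), none of which has a name in the sources used here. At day 7 MSTRG.20499 changed by 1.33 on the log2 scale in Mangaia (adjusted p = 0.00647 by the quasi-likelihood test of edgeR) and 1.04 in Kauai (adjusted p = 0.0104). MSTRG.16237 had 1.71 (adjusted p = 0.0035) and 1.27 (adjusted p = 0.00677). MSTRG.12403 had 1.25 (adjusted p = 0.03) and 0.75 (adjusted p = 0.133) and, like the enzyme, was called in Mangaia but not in Kauai, while the other genes were called in both. They were picked for their likeness over these libraries.

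The genes most like phosphoacetylglucosamine mutase, out of 8524, were MSTRG.15096 (Pearson r = 0.93, Spearman rho = 0.94), MSTRG.20663 (0.88 and 0.82) and MSTRG.20129 (0.87 and 0.88), also without names. They were far better covered, at means of 64.0, 21.8 and 66.5 CPM. Their log2 fold changes at day 7 in Mangaia were -0.31, -0.37 and -0.17 and were not called (adjusted p of 0.294, 0.286 and 0.49). In Kauai they were 0.65, 0.77 and 0.87 and were all called (adjusted p of 0.0255, 0.0226 and 0.00125). They too were picked for likeness, so this shared direction follows from the choice.

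The immune list holds 3 more genes related to metabolism by name, of which 0 were called higher at day 7, while 1 in Mangaia (18.8% of all genes were called lower) and 2 in Kauai (26.2%) were called lower. Cytochrome b5 (MSTRG.23133), an electron carrier of fatty acid and sterol metabolism, fell in each population. Its log2 fold change was -2.20 in Mangaia (SE 0.534, adjusted p = 0.00845) and -4.18 in Kauai (SE 0.568, adjusted p = 0.000135 by the quasi-likelihood test of edgeR). It went from 5.92, 4.50 and 4.58 CPM to 1.52, 0.368 and 1.37 CPM in Mangaia, and from 7.97, 11.5 and 15.3 CPM to 0.278, 0.530 and 1.06 CPM in Kauai. The groups did not overlap in either population, as was so in the lower direction for 27.4% of all genes in Mangaia and 29.7% in Kauai.

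Adenosine deaminase (MSTRG.279), which turns adenosine into inosine in purine salvage, fell in Kauai at day 7 from 51 read pairs in the 3 controls to 1 read pair (adjusted p = 0.000649 by the quasi-likelihood test of edgeR). In Mangaia it had 11 read pairs in controls and 6 at day 7 (adjusted p = 0.464). Mitoferrin-1-like (MSTRG.18399), a carrier that brings iron into mitochondria, stood at a log2 fold change of 1.14 at day 4 in Mangaia (adjusted p = 0.065) and fell from day 4 to day 7 there by 1.54 on the log2 scale (adjusted p = 0.00537). At day 7 it had -0.40 in each population (adjusted p of 0.38 and 0.301).

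Of the 53 genes on the immune list, 21 were called higher and 6 lower in Mangaia at day 7 (12.6% and 18.8% of all genes tested), with a median log2 fold change of 0.62, where the median of all genes tested was -0.01. In Kauai 36 were called higher and 9 lower (25.1% and 26.2% of all genes tested), with a median of 1.14 against 0.07. The list holds genes expressed in these libraries and is a subset. The study cites the list where it counts immune genes that changed after infestation in these same libraries. Genes may thus have been listed for their response. Counts on the list are therefore a description and do not show an excess among immune genes. The calls of both enzymes carry the same limit.

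**Figure D5:**
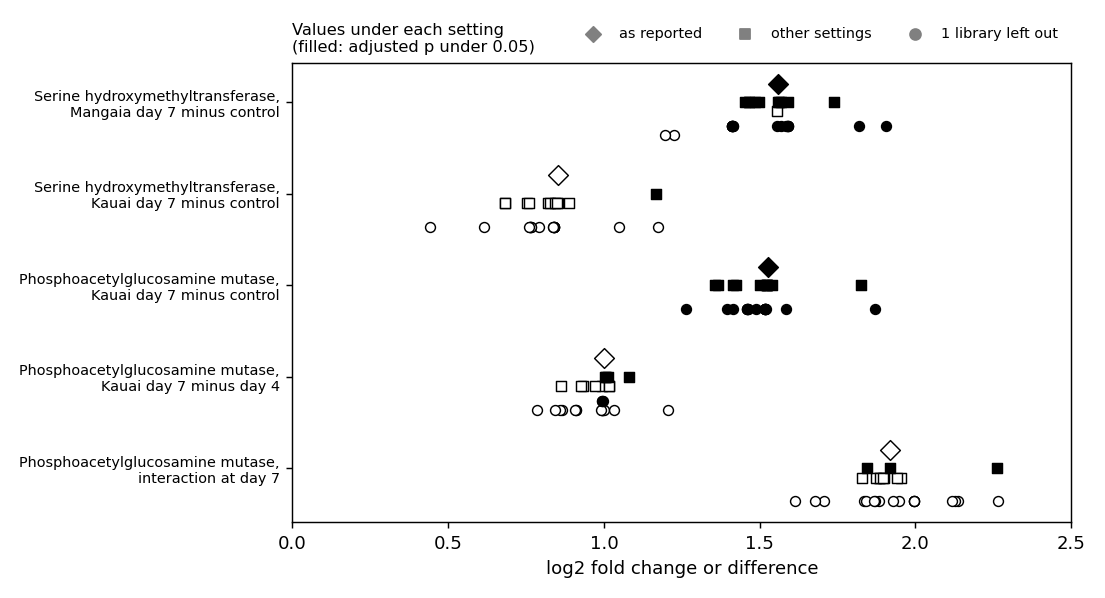
Log2 fold change or difference of 5 results as reported (diamond), under the other settings (squares) and with each library left out in turn (circles), filled where the adjusted p was under 0.05 and open, drawn slightly lower, where it was not. Values of phosphoacetylglucosamine mutase in Kauai at day 7 ran from 1.26 to 1.87 and are all filled, while those of serine hydroxymethyltransferase in Mangaia at day 7 (1.19 to 1.91) and of the mutase's interaction (1.61 to 2.26) lie on both sides of the threshold.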

How the data were processed

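Per the submitters' notes, the tools were Trimmomatic 0.33, STAR 2.5.3a and StringTie 1.3.4d. After trimming and alignment to the cricket genome, the authors deposited, for each library, raw counts of uniquely mapped read pairs per gene (32729 genes, of which 23748 were tested), at 6266925 to 8023588 counted pairs per library. The name of the genome build was not given in the sources used here. Pairs that mapped to several places or lay in more than 1 gene were counted in no gene, so near-identical gene copies are undercounted. Lines for unmapped, multimapped, unassigned and ambiguous pairs were kept out of library sizes, which left 68.5% to 73.2% of the pairs listed per library. The deposited files also hold counts per strand, which were used for the strand shares alone and for 1 alternative.

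Counts on both strands together were analysed in R 4.3.3 with edgeR 4.0.16. Genes reaching 1 CPM in 2 or more libraries were tested, TMM factors were applied, and a quasi-likelihood model of 6 group means was fitted to all 18 libraries. Each of 12 contrasts was adjusted by the Benjamini-Hochberg method over all genes tested, at a threshold of 0.05. SE is the absolute log2 fold change over the square root of F, and 95% intervals use the t distribution. Log2 CPM used a prior count of 2. The code was tested on simulated data with 200 changed genes. Shares and totals of counts carry exact (Clopper-Pearson or Poisson) 95% intervals, which cover counting error only.

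Named genes were the 2 enzymes, 3 further rows of the immune list related to metabolism, 7 phenoloxidases, and for each enzyme the 3 genes of at least 10 CPM on average whose log2 CPM correlated best with it over the 18 libraries. These members and lists were chosen with earlier results of these data known. As alternatives, DESeq2 1.42.0, the likelihood ratio test of edgeR and voom of limma 3.58.1 were run. Other scalings (RLE, or library size alone) and other filters (none, or filterByExpr) were tried. Further alternatives were the libraries compared alone, the replicate number as a block, the sum of the stranded counts and leaving out each library. A setting chosen after seeing the data left out the day 7 library of each population that correlated least with its group. That rule always picks a library from each group. Kauai day 7 library 1, at a mean r of 0.940, was close to the others of its group (0.949 and 0.946). No cell type of the abdomen other than hemocytes had a named marker in the sources used here. No library duplicated another.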

Additional observations from a re-analysis of the deposited data

How the results depend on the processing

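Of the 262 values of both enzymes in the 12 contrasts under settings other than leaving out 1 library, 249 kept their direction and their side of the threshold, as did 410 of 432 with 1 library left out. With only the libraries compared in the model, serine hydroxymethyltransferase in Mangaia at day 7 kept its value of 1.56 but not its call (adjusted p = 0.052). Library size alone gave 1.17 for it in Kauai at day 7, and for phosphoacetylglucosamine mutase 1.08 from day 4 to day 7 in Kauai and 2.26 for the interaction at day 7, all called. That step was also called by the likelihood ratio test (1.00), limma voom (1.01) and with filterByExpr (1.01), and that interaction by the likelihood ratio test (1.92) and DESeq2 (1.85). Values of serine hydroxymethyltransferase near 0 changed sign without being called. Kauai minus Mangaia at day 4 was 0.0017 without the day 7 library of each population that correlated least with its group. The average over stages was -0.0890 without these libraries, -0.0111 with limma voom and -0.000212 with library size alone. The cause of these changes was not tested.

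With 1 library left out, serine hydroxymethyltransferase ranged from 1.19 to 1.91 for Mangaia day 7 over control, from -0.0892 to 0.529 for Kauai day 7 over day 4, from -0.29 to 0.27 for Kauai minus Mangaia at day 4, from -0.656 to 0.0560 at day 7 and from -0.10 to 0.15 on average. The mutase ranged from -0.0319 to 0.461 for Mangaia day 7 over day 4, from 0.79 to 1.21 for Kauai day 7 over day 4 and from -0.43 to 0.19 for Kauai minus Mangaia at day 4. The step in Kauai was called without Mangaia day 7 library 1 (adjusted p = 0.0466) or 3 (0.0497) or Kauai control 1 (0.0464).

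Deviations of same-numbered libraries from their group means correlated at r from -0.514 to 0.263 over 45 pairs, 10 of them over 0.1. Differently numbered libraries were not compared, so these values cannot exclude a pairing by number. The number was not taken as a pairing in the main model. With the replicate number as a block, serine hydroxymethyltransferase was still called in Mangaia at day 7 (adjusted p = 0.0379), the mutase in Kauai at day 7 was 1.52 (adjusted p = 0.00758) and its interaction was 1.94 (adjusted p = 0.0975). The block changed no call of either enzyme.

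Counts of genes called over the settings other than leaving out 1 library ran from 550 to 1452 for Mangaia day 4 (738 as reported), from 3327 to 8708 for day 7 (7454) and from 1384 to 7533 between these days (6308). In Kauai they ran from 279 to 2235 (491), from 10206 to 13444 (12174) and from 2760 to 7619 (5864). Between the populations they ran from 3 to 656 in controls (10), from 0 to 505 at day 4 (36), from 0 to 2610 at day 7 (839) and from 180 to 1067 on average (358), and for the interaction at day 7 from 0 to 2131 (576). That 0 was reached under the block and without the day 7 library of each population that correlated least with its group. It was also reached without any one of 7 libraries (library 1 of Kauai day 4 or of either day 7 group, library 2 or 3 of either control group). With 1 library left out, counts fell as low as 218 for Mangaia day 4 and 4309 for day 7 (both without Mangaia control 1), 106 for Kauai day 4 (without Kauai control 3), and 1809 between the Kauai days and 18 between the populations at day 7 (both without Kauai day 7 library 1). At 4 to 26 read pairs per library, counting error limits what can be seen in the mutase.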

Other observations

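Chosen after its values were seen, the strand share of phosphoacetylglucosamine mutase in Kauai at day 7 stood out: 47 of 72 read pairs, or 65.3% (exact 95% interval 53.1 to 76.1, counting error only), lay on the first strand. By library the first and second strand held 19 and 6, 13 and 8, and 15 and 11 pairs, so library 1 had the largest imbalance. In the other 5 groups the share was 38.1% to 52.9%, and each interval held 50%. No adjustment was made for looking at both enzymes in all 6 groups.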
